A study of Rattus norvegicus with 9 samples.

Results

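RNA of blood CD4+ T cells was compared between arthritic rats given a combination of compounds and arthritic rats of the model group. The comparison covers 6 of the 9 libraries of the series, 3 in each group, and describes the 14140 of 36858 genes and 36208 of 80092 transcripts that averaged 1 TPM or more in these 6 libraries. TPM is a level corrected for transcript length and scaled to the same total in every library. All animals were SD rats aged 8 to 10 weeks, and CD4+ T cells were taken from peripheral blood. The series title concerns rheumatoid arthritis, and CIA, the term of the design text, was read as collagen-induced arthritis. The combination group was treated for 4 weeks. The labels give neither the compounds and their doses nor what the model rats received, and they do not say how the CD4+ cells were selected. Nor is it given that the libraries are from different animals, so p-values reflect only the variation among libraries, which may be technical. The 3 normal libraries are given as levels beside the comparison and entered the estimate of the spread.

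Collagen-induced arthritis is a joint disease in which immunisation with cartilage collagen starts an immune attack that depends on CD4+ T cells. A T cell that meets its antigen switches on early response genes within minutes, among them subunits of the transcription factor AP-1. It then raises glucose use, cytokine output and the protein folding capacity of the endoplasmic reticulum, while feedback genes and inhibitory receptors such as Ctla4 limit the response. TGF-beta, a cytokine that restrains T cells, signals through Smad proteins and is itself held back by Smad7, Ski and Skil.

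Aligned depth was 8.04 to 10.1 gigabases in the model libraries and 7.52 to 8.12 gigabases in the combination libraries. T cell markers were abundant in all 6 libraries: Cd3d lay at 278 to 473 TPM, Cd3e at 228 to 416 TPM and Cd4 at 76.5 to 186 TPM. Cd8a, of cytotoxic T cells, lay at 2.47 to 6.54 TPM, and Cd79a, of B cells, at 1.47 to 5.77 TPM. Model replicate 2 held the most Cd4 and Cd3e and the least Fos, Ier2 and Klf4 of the model libraries. Combination replicates 1 and 3 listed 25726 and 26108 genes above 0 TPM, against 19772 to 20844 in the other 7 libraries. In the file headers the combination libraries carry sample names unlike those of the other groups. Any difference in how they were handled cannot be told apart from the treatment.

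In all, 687 of 14140 genes (4.86%) passed an adjusted p of 0.05 in limma, 373 of them higher (2.64%) and 314 lower (2.22%) in the combination group. Among the higher genes 234 rose at least 2-fold and 13 at least 4-fold, and among the lower ones 172 and 19 fell as far. The 3 libraries of either group did not overlap for any of the 687 genes, nor for 3840 of all genes tested (27.2%). Higher genes included 105 loci with no gene name and 57 named genes under 300 bases, against 20 and 1 among the lower genes. Of all genes tested, 2829 were loci with no gene name and 495 were named genes under 300 bases. Of the called genes 54.3% were higher; when TPM was rescaled after removal of haemoglobin, mitochondrial and ribosomal protein genes, 1549 genes passed, and 67.3% of them were higher. The median difference of all genes on the log2(TPM + 1) scale was 0.037. All differences below are combination minus model on that scale, which understates the change of genes of few TPM.

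**Figure D1:**
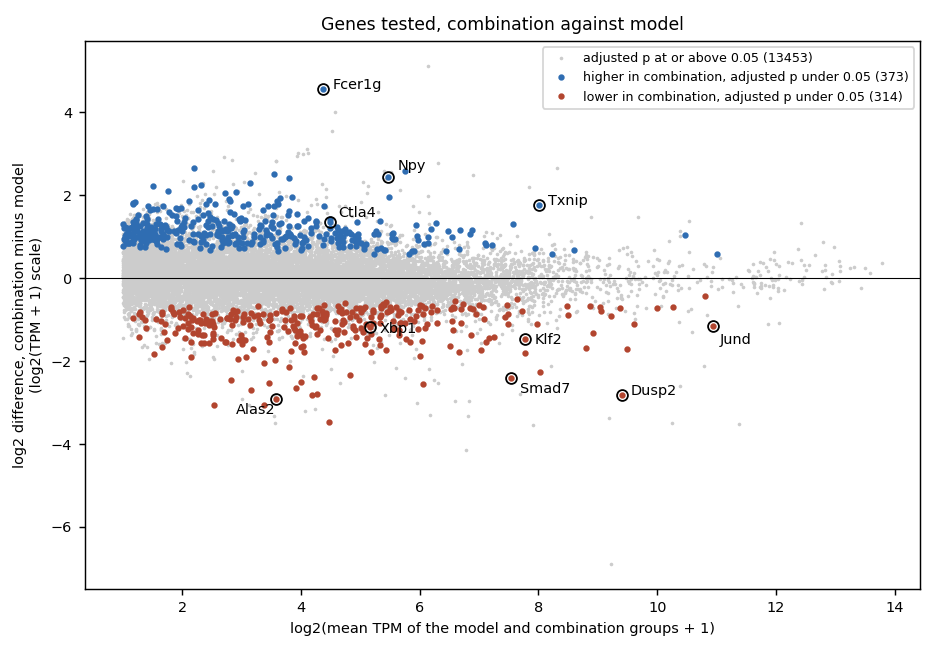
Difference between the groups (vertical axis, log2(TPM + 1) scale, combination minus model) against mean level (horizontal axis, log2 of mean TPM plus 1) for the 14140 genes tested. The 373 higher and 314 lower genes past an adjusted p of 0.05 are coloured, and circled genes are named in the text; Fcer1g at 4.56 was the largest coloured rise.

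The number of genes depended on single libraries. Omission of model replicate 1, 2 or 3 gave 278, 1349 or 42 genes, and omission of combination replicate 1, 2 or 3 gave 3, 142 or 399. Omission of normal replicate 1, 2 or 3 gave 158, 147 or 305. In a fit of only the 6 libraries 24 genes (0.17%) passed, and 22 of these were among the 687. The groups did not overlap for any of the 687 genes, so leaving out 1 of the 6 libraries could not turn a direction. Of the 687, 3 stayed past the threshold in each of the 6 fits with 1 of these libraries left out. They were Jund, Scamp4 and the unnamed locus MSTRG.9501. All other named genes below lost the call without combination replicate 1, where adjusted p-values reached 0.1 among the 20 of the 22 genes called in both fits that could be tested.

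Jund, a subunit of AP-1, was the most abundant gene among those called in both fits. Jund (rn6 chromosome 16, 20485029 to 20486707) was at 2596, 2815 and 2692 TPM in model replicates 1, 2 and 3 and at 1252, 1141 and 1233 TPM in combination replicates 1, 2 and 3. The groups lay far apart with little spread within them, and the normal libraries, at 2252, 2514 and 2387 TPM, lay above the combination group too. The difference was -1.16 ± 0.10 (SE, adjusted p = 0.00431). Scamp4, a membrane protein of vesicle traffic, fell from 34.7, 38.8 and 39.1 TPM to 13.0, 11.8 and 10.1 TPM (-1.61 ± 0.16, adjusted p = 0.00835), with 26.2 to 33.9 TPM in normal libraries. Nol12, a nucleolar protein, fell from 27 to 34.2 TPM to 10.4 to 11.5 TPM (-1.43 ± 0.15, adjusted p = 0.00998). Hinfp, a regulator of histone H4 genes, fell from 34.8 to 46.8 TPM to 11.9 to 13.7 TPM (-1.56, adjusted p = 0.0257). Hs3st1, an enzyme that modifies heparan sulfate, fell from 32.8 to 38 TPM to 8.02 to 13.7 TPM (-1.73, adjusted p = 0.0214). Each of these 5 genes was lower in all combination libraries than in any model library, and the groups were likewise apart for every called gene.

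Txnip, an inhibitor of thioredoxin that also limits the uptake of glucose, rose. It was at 113, 154 and 86.6 TPM in model replicates 1, 2 and 3 and at 462, 358 and 371 TPM in combination replicates 1, 2 and 3 (1.77 ± 0.23, adjusted p = 0.0214; adjusted p = 0.0519 without combination replicate 1). All combination libraries lay above all model libraries and below the normal libraries, which held 608, 899 and 873 TPM. Npy, which encodes neuropeptide Y, rose from 10.9, 19.2 and 9.52 TPM to 78.1, 57.0 and 86.0 TPM (2.43 ± 0.39, adjusted p = 0.0255), with 3.80 to 13.7 TPM in normal libraries. The neighbouring gene LOC100912228 (chromosome 4, 79573998 to 79581208) rose by nearly the same amount (2.59 ± 0.42, adjusted p = 0.0255). It lies beside Npy (79557854 to 79565097), and reads could be shared between these 2 genes if they are copies. Without combination replicate 1 neither Txnip nor Npy passed.

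**Figure D2:**
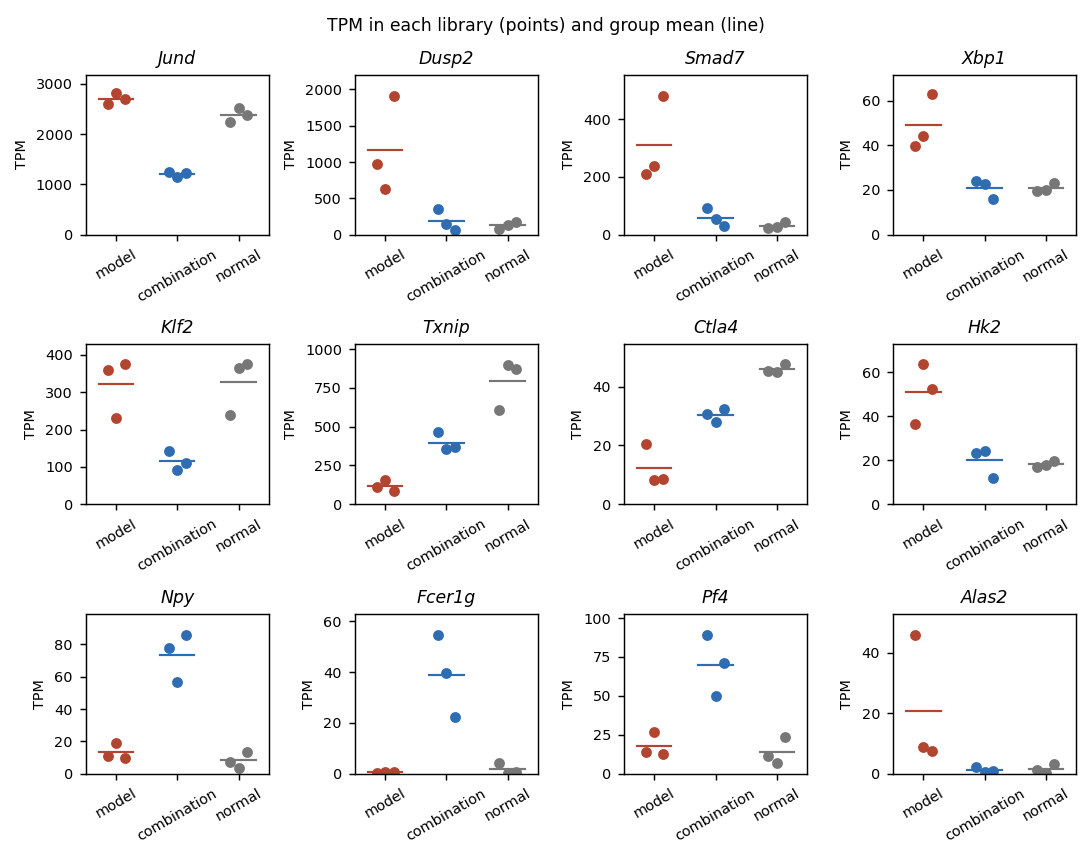
TPM of 12 genes in each library (points; horizontal lines are group means) of the model, combination and normal groups. Jund lies at 1141 to 1252 TPM in the combination group and at 2252 TPM or more elsewhere, while Xbp1, Dusp2, Smad7 and Hk2 in the combination group lie nearer to the normal than to the model libraries.

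The gene lists were chosen with earlier results of these data known, so their shares beside those of all genes are description only. Of 25 members of the immediate early and AP-1 list measured, 5 fell and none rose (2.22% of all genes tested fell), and 3 of the 25 lay above 0. Of the list, 8 had groups that did not overlap, all lower (13.1% of all genes tested were apart and lower), and the median difference was -0.90, against 0.037 for all genes. The 5 were Jund, Dusp2, Mafk, Maff and Ier5. Dusp2, a phosphatase that switches off MAP kinases, was at 972, 626 and 1912 TPM in the model and at 346, 145 and 63.5 TPM in the combination libraries (-2.83 ± 0.59, adjusted p = 0.0373). Its model libraries spread 3-fold and still lay above all combination libraries; normal libraries held 79.8 to 168 TPM. Mafk and Maff, small Maf proteins that pair with AP-1 and related factors, fell from 152 to 305 TPM to 60.8 to 79.8 TPM (-1.55, adjusted p = 0.0255) and from 62.4 to 138 TPM to 25.0 to 40.4 TPM (-1.52, adjusted p = 0.0293). Ier5, an early growth response gene, fell from 734 to 833 TPM to 323 to 498 TPM (-0.91, adjusted p = 0.0304).

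Not all AP-1 subunits moved with Jund. Jun had 1871, 1173 and 3546 TPM in the model and 626, 77.1 and 715 TPM in the combination libraries, which did not overlap, but the difference of -2.60 missed the threshold (adjusted p = 0.0728). Fos had 321, 24.1 and 69.3 TPM in the model and 138, 65.0 and 102 TPM in the combination libraries (0.25, adjusted p = 0.865). Junb differed by -0.66 (adjusted p = 0.138) and Fosl2 by 0.26 (adjusted p = 0.571). Without model replicate 2, 12 list members fell and none rose, with a median of -1.18. In that fit 648 of the 14140 genes fell and 689 rose, more than in the main fit, with a median of 0.087. Without combination replicate 1, Jund alone of the 5 passed (adjusted p up to 0.0577 for the others), without combination replicate 2 also Jund alone, and without model replicate 3, 2 of the 5. The median kept its sign in every alternative.

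Promoter sequences of Jund and Maff are shown because both fell and hold a cAMP response element, the palindrome TGACGTCA that AP-1 and CREB family factors can bind. They come from RefSeq (build GRCr8), are the 250 bases before the gene's start, 5′ to 3′ on the gene's strand, with the motif in capitals.
Jund: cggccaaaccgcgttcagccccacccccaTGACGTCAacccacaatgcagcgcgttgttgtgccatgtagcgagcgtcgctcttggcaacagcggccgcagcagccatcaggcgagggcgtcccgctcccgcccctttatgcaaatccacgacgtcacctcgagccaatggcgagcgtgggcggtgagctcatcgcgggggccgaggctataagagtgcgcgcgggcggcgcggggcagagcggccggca
Maff: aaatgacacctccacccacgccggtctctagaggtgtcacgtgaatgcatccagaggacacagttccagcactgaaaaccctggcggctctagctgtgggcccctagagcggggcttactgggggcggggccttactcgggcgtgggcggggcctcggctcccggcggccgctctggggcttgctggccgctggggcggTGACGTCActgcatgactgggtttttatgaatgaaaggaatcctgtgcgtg
The windows are chr16:18769772-18770021, minus strand, for Jund and chr7:112792537-112792786, plus strand, for Maff. Searched on both strands in windows from 250 bases before to 50 after the start, the element was in 5 of 20 list promoters that could be matched (25.0%: Jund, Maff, Ier2, Dusp1 and Btg2) and in 612 of 33469 promoters of all genes (1.83%). Of these 5 genes Jund and Maff passed the test; Dusp1 differed by 0.23 and Btg2 by -0.47. The E-box (CACGTG; 6.42% of all promoters) and the TATA box (TATAAA; 14.2%) were also in 5 of the 20, and the AP-1 site itself (TGANTCA; 7.33%) was in 0. The cAMP response element was in 3 of 15 TGF-beta promoters (20%). In all 10 motifs were searched, after the values of the lists had been seen, and a match is a match of letters only.

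Of 18 TGF-beta pathway genes measured, 3 fell (Smad7, Tgif1 and Tgfb1; 2.22% of all genes fell) and none rose. Groups were apart and lower for 7 (13.1% of all genes) and apart and higher for 1 (14.1% of all genes), and the median was -0.79. Smad7, which blocks the receptors, fell from 209, 238 and 482 TPM to 92.8, 52.7 and 30.9 TPM (-2.41 ± 0.43, adjusted p = 0.0288), with 22.7 to 44.1 TPM in normal libraries. Tgif1, a corepressor of Smads, fell from 136 to 223 TPM to 52.7 to 77.9 TPM (-1.36, adjusted p = 0.028). The ligand gene Tgfb1 fell from 101 to 190 TPM to 43.5 to 66.4 TPM (-1.26, adjusted p = 0.0392). The corepressor Ski had 83.2, 50.7 and 274 TPM and then 31.0, 27.6 and 5.98 TPM (-2.52, adjusted p = 0.0615), and Skil differed by -2.08 (adjusted p = 0.0522). The signal carriers Smad2 (-0.03) and Smad4 (0.11) differed little, with adjusted p-values of 0.911 and 0.802. None of the 3 calls held without combination replicate 1 (adjusted p up to 0.0714) or without model replicate 3 (up to 0.0826). Without model replicate 2, 9 members fell and 1 rose, while 648 of the 14140 genes fell and 689 rose.

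The unfolded protein response raises folding capacity when proteins misfold in the endoplasmic reticulum. Of 20 of its genes measured, 5 fell (2.22% of all genes) and none rose, 11 had groups apart and lower (13.1% of all genes), 3 lay above 0, and the median was -0.54. Xbp1, the transcription factor of the response, was at 39.8, 44.4 and 62.9 TPM in the model and at 23.9, 22.6 and 16.0 TPM in the combination libraries (-1.19 ± 0.22, adjusted p = 0.0288). The normal libraries, at 19.8, 19.8 and 23.4 TPM, overlapped the combination libraries. Calr, a calcium-binding chaperone, fell from 824 to 1349 TPM to 438 to 565 TPM (-1.11, adjusted p = 0.0302). Sdf2l1, a partner of chaperones, fell from 54.6 to 90.1 TPM to 25.0 to 27.7 TPM (-1.37, adjusted p = 0.0233). Manf fell from 144 to 217 TPM to 83.0 to 96.1 TPM (-0.98, adjusted p = 0.0257), in a locus shared with Rbm15b. Creld2 fell from 9.49 to 10.6 TPM to 3.91 to 4.65 TPM (-1.05, adjusted p = 0.0233). Chaperones that did not pass were Hspa5 (-0.48, adjusted p = 0.0693) and Hsp90b1 (-0.76, adjusted p = 0.107), and the sensor Ern1 differed by -0.95 (adjusted p = 0.243). None of the 5 calls held without combination replicate 1 (adjusted p up to 0.063) or model replicate 3 (up to 0.0759), and all 5 held without model replicate 2. The same stress raises the factor ATF4, and of 18 genes measured on its list 1 fell and 1 rose. Among all genes 2.22% fell and 2.64% rose. Trib3, which responds to ATF4, fell (-1.62, adjusted p = 0.0288). Eif2ak3, which is the kinase that starts that branch, rose from 16.7 to 18.2 TPM to 27 to 38.5 TPM (0.86, adjusted p = 0.0298).

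The endoplasmic reticulum stress response element, CCAAT and CCACG separated by 9 bases, is bound by NF-Y together with ATF6 or XBP1. Promoters of Xbp1, Calr and Creld2, which fell, are shown with its fixed letters in capitals, as read on the gene's strand in RefSeq (GRCr8). In Calr and Creld2 the element lies on the opposite strand, so its letters appear as the reverse complement.
Xbp1: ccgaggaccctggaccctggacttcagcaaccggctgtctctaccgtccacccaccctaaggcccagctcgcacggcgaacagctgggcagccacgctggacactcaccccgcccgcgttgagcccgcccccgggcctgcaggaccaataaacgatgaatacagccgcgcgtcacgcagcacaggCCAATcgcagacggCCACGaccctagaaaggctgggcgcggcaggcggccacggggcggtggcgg
Calr: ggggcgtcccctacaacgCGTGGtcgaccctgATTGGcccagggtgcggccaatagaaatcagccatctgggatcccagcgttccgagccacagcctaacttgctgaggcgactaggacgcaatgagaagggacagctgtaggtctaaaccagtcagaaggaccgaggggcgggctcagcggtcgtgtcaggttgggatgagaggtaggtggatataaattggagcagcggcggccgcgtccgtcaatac
Creld2: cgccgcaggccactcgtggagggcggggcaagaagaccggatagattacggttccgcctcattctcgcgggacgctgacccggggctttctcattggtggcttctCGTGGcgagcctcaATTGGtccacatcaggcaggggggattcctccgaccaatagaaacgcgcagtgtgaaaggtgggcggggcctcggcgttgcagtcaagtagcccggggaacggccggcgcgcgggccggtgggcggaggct
These 250 base stretches before the start are chr14:84604373-84604622, chr19:40213117-40213366 and chr7:121789134-121789383, all on the plus strand. The element starts 65, 232 and 145 bases before the start of Xbp1, Calr and Creld2. It was in 7 of 15 promoters of the list (46.7%: Xbp1, Hspa5, Hsp90b1, Calr, Canx, Dnajc3 and Creld2) and in 22 of 33469 promoters of all genes (0.0657%). The 7 genes with it differed by between -1.19 (Xbp1) and -0.35 (Canx), and 3 of them passed the test. Sdf2l1 and Manf, which also fell, are not among the 7. The shares of promoters rest on sequence and on the choice of the list, so they are no result of these libraries. Whether genes with the element differed more than those without it was not tested.

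**Figure D3:**
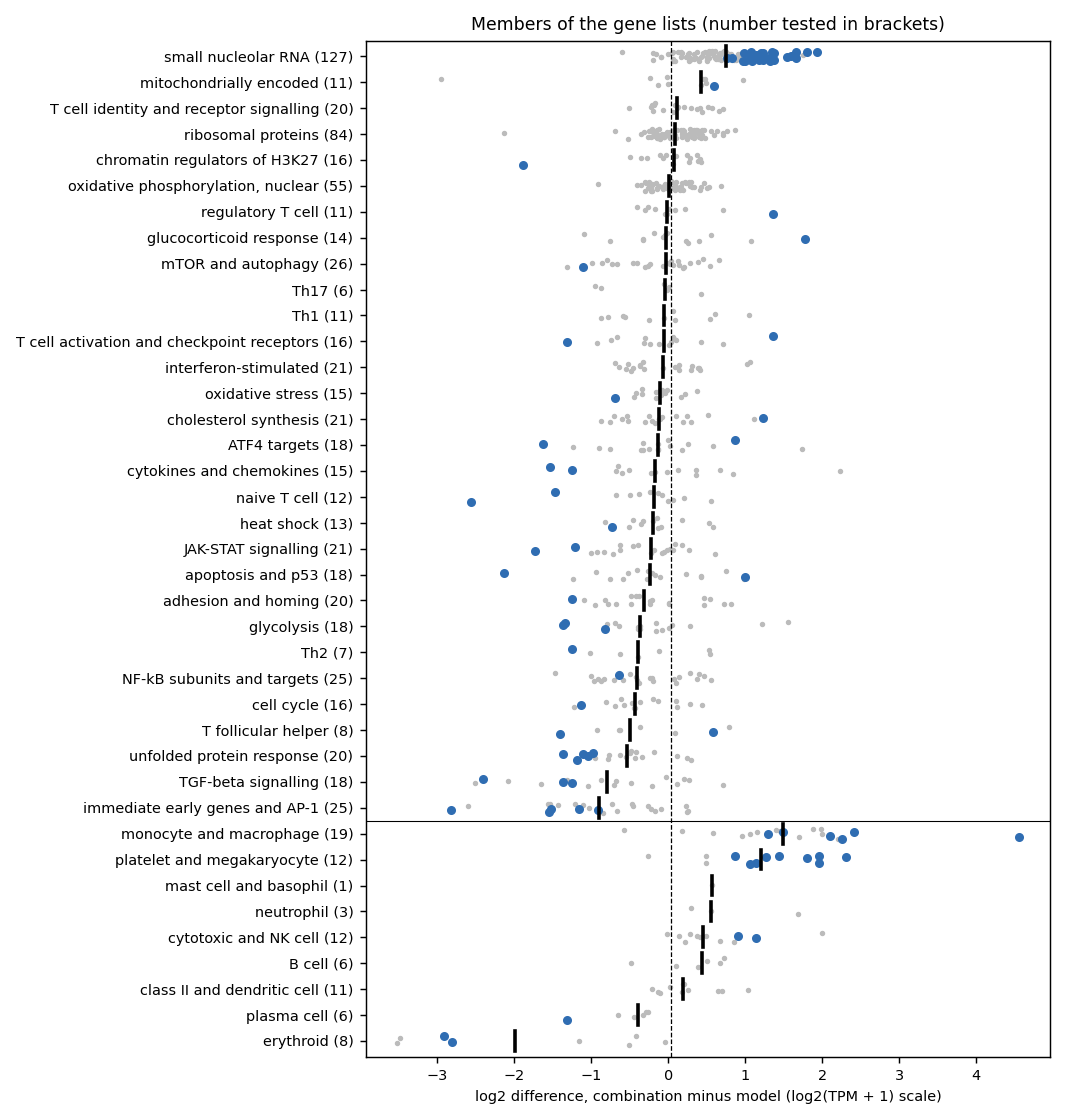
Difference between the groups (horizontal axis, log2(TPM + 1) scale, combination minus model) for every measured member of 39 gene lists; blue points passed an adjusted p of 0.05, black bars are list medians and the dashed line is the median of all genes. Small nucleolar RNA (0.75) lies to the right, unfolded protein response (-0.54), TGF-beta (-0.79) and immediate early genes (-0.90) to the left, and lists of other blood cells stand below the line.

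NF-kB is a transcription factor of inflammation. Of 25 subunits and targets 1 passed, a share near the 4.86% of all genes: Traf2, an adaptor of TNF receptors, fell from 195 to 228 TPM to 119 to 152 TPM (-0.64, adjusted p = 0.0426). The list median was -0.40, and 7 members had groups apart, all lower (13.1% of all genes). Rela had 211, 246 and 324 TPM and then 172, 133 and 109 TPM (-0.91, adjusted p = 0.0524). Nfkb2 (0.07), Birc3 (-0.20) and Tnfaip3 (0.10) had adjusted p-values over 0.7, and their combination levels overlapped those of the model. Traf2 did not pass when any of the libraries other than model replicate 2 was left out (adjusted p up to 0.109).

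Cytokine and cytokine receptor genes changed at few members. Lta, which encodes lymphotoxin alpha, fell from 12.8, 14.4 and 18.5 TPM to 5.74, 5.52 and 2.87 TPM (-1.53 ± 0.25, adjusted p = 0.0255), with 1.64 to 2.43 TPM in normal libraries. Besides Lta and Tgfb1 none of the 15 cytokine genes measured passed (4.86% of all genes passed). Il1b, which monocytes make in quantity, had 7.98 to 14.4 TPM in the model and 25.0 to 84.2 TPM in the combination libraries (2.23, adjusted p = 0.0557). Tnf had 2.78 to 7.79 TPM and 2.12 to 7.39 TPM (0.12, adjusted p = 0.901). Of 21 JAK-STAT genes, the kinase gene Pim2 (-1.73, adjusted p = 0.0302, in a locus shared with Slc35a2) and Cish, a feedback inhibitor (-1.21, adjusted p = 0.0329), fell and none rose. Of all genes 2.22% fell. Of the 21, 8 had groups apart and lower (13.1% of all genes). Socs3 differed by -1.01 (adjusted p = 0.102). Without combination replicate 1 none of these genes passed (adjusted p up to 0.0663).

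Ctla4, an inhibitory receptor of T cells, rose: 20.5, 8.05 and 8.42 TPM in the model became 30.8, 28 and 32.4 TPM in the combination libraries (1.36 ± 0.29, adjusted p = 0.0408). The combination libraries lay close together, and the normal libraries lay higher, at 45.1 to 47.6 TPM. Foxp3, of regulatory T cells, had 22.1 to 27.3 TPM and 19.4 to 29.0 TPM (-0.02, adjusted p = 0.963), and Ctla4 was the only gene of that list of 11 to pass (4.86% of all genes passed). Irf4, an activation factor also of plasma cells, fell from 2.62 to 7.33 TPM to 0.80 to 1.15 TPM (-1.31, adjusted p = 0.0456). Neither call held when any combination library or model replicate 3 was left out (adjusted p of 0.0778 to 0.13). Leaving out any normal library also ended both calls (adjusted p of 0.059 to 0.0717). Irf4 did not pass without model replicate 1 either (adjusted p = 0.0664).

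Of 12 naive T cell genes, Klf2 and Id3 fell (2.22% of all genes fell) and none rose. Groups were apart for 2 of the 12, both lower (13.1% of all genes). Klf2, which sustains the homing receptors of resting T cells, had 358, 232 and 376 TPM in the model and 143, 91.5 and 111 TPM in the combination libraries (-1.47 ± 0.25, adjusted p = 0.0257). Normal libraries, at 239 to 375 TPM, lay above the combination group. Id3, an inhibitor of E proteins, fell from 46.2 to 211 TPM to 11.2 to 24.6 TPM (-2.56, adjusted p = 0.0293). Tcf7 and Lef1, other transcription factors of naive cells, differed by -0.0064 and -0.09 (adjusted p of 0.993 and 0.736). Both calls were lost without combination replicates 1 or 2 and model replicates 1 or 3, with adjusted p up to 0.0814.

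Helper subset lists had at most 1 call each way. Of 7 Th2 genes measured 1 fell, and of 8 follicular helper genes 1 rose and 1 fell. Among all genes tested 2.64% rose and 2.22% fell. Ccr4, a receptor of Th2 cells, fell from 28.5, 36.3 and 36.7 TPM to 15.7, 12.3 and 13.0 TPM (-1.24, adjusted p = 0.0255). Cxcr5, of follicular helper cells, fell from 9.26 to 19.7 TPM to 3.61 to 5.53 TPM (-1.41, adjusted p = 0.0298), and Sh2d1a, an adaptor in the same cells, rose from 28.1 to 30.4 TPM to 39.3 to 48.8 TPM (0.59, adjusted p = 0.0485). In limma none of 11 Th1 genes or 6 Th17 genes passed, with 6 and 2 at an unadjusted p under 0.05. Of all 14140 genes tested, 3787 had an unadjusted p under 0.05 in limma. Cxcr3 differed by -0.79 (adjusted p = 0.075), Ifng by -0.59 (adjusted p = 0.0784) and Rora by -0.88 (adjusted p = 0.0953). Of 20 T cell identity and signalling genes none passed in limma, with 6 at an unadjusted p under 0.05; Ptprc differed by 0.57 (adjusted p = 0.0634). Without model replicate 2, 4 of these 20 rose, as did 689 of all 14140 genes. None of the 3 calls of Ccr4, Cxcr5 and Sh2d1a held without combination replicate 1 (adjusted p up to 0.0717).

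Of 18 glycolysis genes measured, 3 fell (2.22% of all genes fell) and none rose, with a median of -0.37. Groups were apart and lower for 5 (13.1% of all genes) and apart and higher for 2 (14.1% of all genes). Pfkl and Pfkp, forms of phosphofructokinase, fell from 17.7 to 26.7 TPM to 6.42 to 9 TPM (-1.36, adjusted p = 0.0233) and from 30 to 40.7 TPM to 15.7 to 20.8 TPM (-0.82, adjusted p = 0.0432). Hk2, an inducible hexokinase, had 36.5, 63.5 and 52.4 TPM in the model and 23.4, 24.2 and 12 TPM in the combination libraries (-1.34 ± 0.28, adjusted p = 0.0378). Normal libraries had 17.1 to 19.5 TPM of Hk2, within the combination range, but 17.7 to 19.9 TPM of Pfkl, above it. The glucose transporter Slc2a3 was at 0.862 to 4.10 and 4.78 to 7.12 TPM (1.22, adjusted p = 0.0645). None of the 3 calls held without combination replicate 1 or model replicate 3 (adjusted p up to 0.111).

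Other cell processes had at most 1 call each way, while 2.64% of all genes rose and 2.22% fell. Mcm5, of the replicative helicase, fell from 19.1 to 29.4 TPM to 8.4 to 11.7 TPM (-1.13, adjusted p = 0.0266), as the only 1 of 16 cell cycle genes to pass (4.86% of all genes passed). Of the 16, 7 had groups apart, all lower (13.1% of all genes). Gadd45g, a growth arrest gene, fell from 15.1 to 32.8 TPM to 3.07 to 5.06 TPM (-2.14, adjusted p = 0.0233), and Fas, the death receptor, rose from 1.11 to 1.29 TPM to 2.22 to 4.48 TPM (1.00, adjusted p = 0.0419). Kdm6b, a demethylase of histone H3, fell from 67.6, 46.6 and 194 TPM to 33.4, 18.4 and 18.0 TPM (-1.88, adjusted p = 0.0497), in a locus shared with Tmem88. Hsp90ab1, a cytosolic chaperone (-0.73, adjusted p = 0.0439), Prdx1, a peroxidase (-0.69, adjusted p = 0.0416), and Rragc, a Rag GTPase that signals amino acids to mTOR (-1.10, adjusted p = 0.0408), fell. Gadd45g and Fas were the only calls among 18 apoptosis and p53 genes, and Kdm6b was the only one among 16 chromatin genes. Hsp90ab1 was the only call of 13 heat shock genes, Prdx1 of 15 oxidative stress genes and Rragc of 26 mTOR and autophagy genes. Without combination replicate 1 none of these 7 genes passed (adjusted p up to 0.0947).

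In limma no gene passed among 21 interferon-stimulated genes (3 at an unadjusted p under 0.05), 55 nuclear genes of oxidative phosphorylation (9) and 84 ribosomal protein genes (16). Among all 14140 genes tested, 3787 were at such an unadjusted p. Their medians of -0.072, 0.0039 and 0.090 lay near that of all genes. Mt-nd2, a mitochondrial subunit of complex I, rose from 1578 to 1704 TPM to 2388 to 2567 TPM (0.59, adjusted p = 0.0474). Its assembled locus holds 7 gene names, each summed separately, and the sum over the whole locus differed by -0.090. Leaving out any 1 of the 6 libraries ended the Mt-nd2 call (adjusted p of 0.0527 to 0.128).

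Small nucleolar RNAs guide chemical changes of ribosomal RNA and lie mostly in introns of host genes. Of 127 measured, 30 rose (2.64% of all genes) and none fell, 65 had groups apart, all higher (14.1% of all genes tested were apart and higher), and the median was 0.75. The 73 C/D box genes, which guide methylation, summed to 770, 686 and 892 TPM in the model and 1654, 1214 and 1263 TPM in the combination libraries; 19 of them rose. The 54 H/ACA box genes, which guide pseudouridylation, summed to 665, 591 and 799 TPM and 1110, 900 and 978 TPM, and 11 of them rose. In both classes the combination sums lay above the model sums, and the normal sums were 1294 to 1796 and 955 to 1255 TPM. SNORA4 rose from 4.61, 3.56 and 5.42 TPM to 19.3, 18.7 and 16.2 TPM (1.80 ± 0.18, adjusted p = 0.00835). SNORD75 (chromosome 13, 78853226 to 78853287) rose from 2.24 to 6.10 TPM to 18.0 to 19.4 TPM (1.93, adjusted p = 0.0233), and SNORD24 beside it (78853437 to 78853518) from 20.7 to 26.3 TPM to 43.6 to 54.8 TPM (1.08, adjusted p = 0.0233). Strand-specific counting is not stated, and such short genes lie within their hosts, so RNA of the host cannot be told apart from the small RNA. None of the 30 calls held without combination replicate 1 (adjusted p up to 0.112), and 2 held without model replicate 3.

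Genes of other blood cells were measured beside those of T cells. In bulk RNA, more cells of a type and more RNA per cell cannot be told apart. Of 19 monocyte and macrophage genes measured, 6 rose (Fcer1g, Csf1r, Cd36, Clec4a3, Cd68 and Fcgr1a; 2.64% of all genes rose), none fell, 12 had groups apart and higher (14.1% of all genes), and the median was 1.49. Fcer1g, the signalling chain of Fc receptors, was at 0.428, 0.754 and 0.608 TPM in the model and at 54.6, 39.8 and 22.2 TPM in the combination libraries (4.56 ± 0.51, adjusted p = 0.00998). The groups were far apart, and normal libraries held 0.241 to 4.19 TPM. The assembled locus of Fcer1g holds 2 gene names, so the split of its reads is uncertain. Csf1r, the receptor that monocytes need to survive, rose from 2.31 to 4.05 TPM to 14.8 to 26.5 TPM (2.41, adjusted p = 0.0434). Cd36, a scavenger receptor, rose from 0.258 to 1.2 TPM to 4.27 to 11.0 TPM (2.26, adjusted p = 0.0366), in a locus of 3 names. Lyz2, the most abundant member, had 140, 68.2 and 47.0 TPM and 453, 421 and 236 TPM (2.20, adjusted p = 0.0617), and Tyrobp had 15.9 to 33.9 and 69.4 to 143 TPM (1.99, adjusted p = 0.0876). Cd14 had 1.80 to 8.66 and 2.96 to 16.5 TPM. Cd163, of tissue macrophages, was at or near 0 throughout.

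Platelet genes rose at 9 of 12 members measured (2.64% of all genes rose) and none fell, with a median of 1.2. Groups were apart and higher for 9 of the 12 (14.1% of all genes). Pf4, platelet factor 4, was at 14, 26.6 and 12.5 TPM in the model and 89.4, 49.8 and 71.1 TPM in the combination libraries (1.96 ± 0.43, adjusted p = 0.041). Clec1b, a platelet receptor, rose from 1.46 to 2.33 TPM to 10.4 to 16.7 TPM (2.31, adjusted p = 0.0182), and Gp1bb, of the receptor for von Willebrand factor, from 2.33 to 3.13 TPM to 10.2 to 15.0 TPM (1.80, adjusted p = 0.0233). Itga2b, the platelet integrin, rose from 4.50 to 5.18 TPM to 9.58 to 15.3 TPM (1.26, adjusted p = 0.0255). Vwf (0.50) and Itgb3 (0.49), which other cells also make, did not pass. No monocyte or platelet call held without combination replicate 1 (adjusted p up to 0.113). Without model replicate 3, 1 gene of each list held (Fcer1g and Clec1b). Others of the 12 largest rises were Lmo2 (2.52), a cofactor of blood cell transcription factors, Fgr (2.07), a kinase of myeloid cells, Btbd11 (2.06), Ogfrl1 (1.90) and Emilin2 (1.88).

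The summed level of the monocyte list was 297, 209 and 148 TPM in the model and 943, 818 and 477 TPM in the combination libraries. The platelet list summed to 46.9, 76.6 and 51.5 TPM and to 217, 152 and 163 TPM. The erythroid list moved the other way, from 16252, 3403 and 2439 TPM to 893, 290 and 414 TPM. In these 3 lists, in the cytotoxic and NK cell list (63.4 to 101 and 114 to 137 TPM) and in the mast cell and basophil list (3.14 to 4.24 and 4.96 to 7.32 TPM) the groups did not overlap, which gives an exact two-sided permutation p of 0.1, the smallest that 3 against 3 libraries allow. Alas2, of haem synthesis, fell from 45.9, 8.80 and 7.41 TPM to 2.15, 0.416 and 1.01 TPM (-2.92, adjusted p = 0.0446), and Hba-a3 by 2.81 (adjusted p = 0.0432). The globin genes Hba-a2 (10917, 2368 and 1672 TPM in the model, 601, 183 and 257 TPM in the combination libraries) and Hbb did not pass (adjusted p of 0.0721 and 0.0828). The killer receptor genes Klrk1 (0.91, adjusted p = 0.0446) and Klrb1a (1.14, adjusted p = 0.0361) rose, while Gzmb and Ncr1 of the same list were below 0.2 TPM in all 6 libraries. None of the erythroid and killer receptor calls held without combination replicates 1 or 2, or model replicates 1 or 3 (adjusted p up to 0.131). B cell, class II, neutrophil and mast cell lists had no call, with at most 1 member each at an unadjusted p under 0.05 (3787 of all 14140 genes tested). The part of these cells in the differences of T cell and stress genes was not tested. With the members of these lists left out of the fit, 631 genes passed. That fit left out only the list members, so other RNA of these cells remained, and its count cannot show their part.

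**Figure D4:**
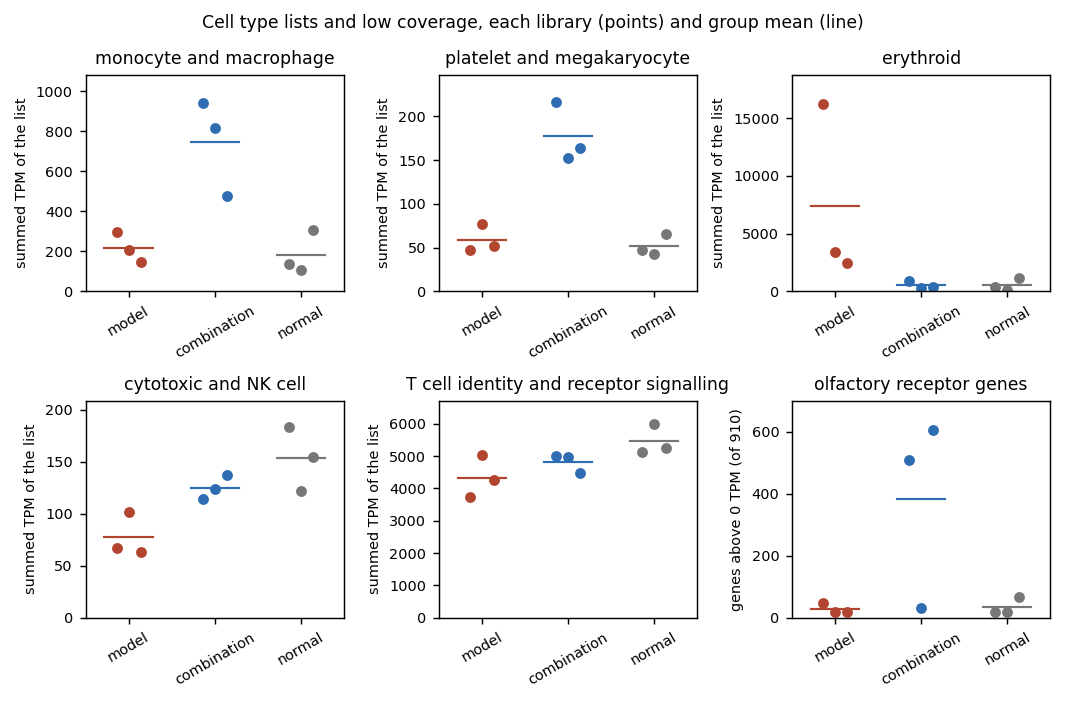
Summed TPM of 5 cell type lists, and number of olfactory receptor genes above 0 TPM, in each library (points; lines are group means). Monocyte and platelet sums lie higher and erythroid sums lower in all 3 combination libraries than in any model library, and 509 and 607 olfactory receptor genes were above 0 in combination replicates 1 and 3.

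Isoforms were tested as single transcripts and as shares of their gene, with less power than genes. On simulated data 4-fold changes were recovered for 36.4% of transcripts and 11.2% of shares, against 89.2% of genes, so the counts of calls cannot be compared. Of 36208 transcripts, 57 passed (0.157%), 23 higher (0.0635%) and 34 lower (0.0939%), and 20 of these belonged to genes that passed as a whole. The share of a transcript in its gene's TPM was tested for 25437 transcripts of 6948 genes, and 36 shares passed (0.142%), 15 higher and 21 lower, in 28 genes. In all 36 the groups did not overlap, against 19.2% of all shares. Of the 36, 27 were assembled rather than reference transcripts, 17 also passed in a fit of only the 6 libraries, and 1 belonged to a gene that passed as a whole (Scamp4). StringTie divides reads among overlapping transcripts by a model, so a share is an estimate that can switch between near-identical structures.

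In Lmbr1l, a membrane receptor gene, the reference transcript ENSRNOT00000082375 made up 61.1%, 60.6% and 59.5% of the gene in the model libraries and 1.22%, 1.57% and 1.37% in the combination libraries (adjusted p = 9.86e-05). Its share was 57.0% to 62.1% in the normal libraries, so the combination group stood apart from both. The transcript has 17 exons and lies wholly within the assembled transcript MSTRG.15941.2, whose share was 8.2% to 11.0% in the model and 21.8% to 25.6% in the combination libraries. In Rapgef1, which encodes an exchange factor for Rap GTPases, MSTRG.10702.5 went from 66.8%, 65.8% and 68.9% to 0.109%, 0% and 0%, with 45.0% to 55.4% in normal libraries. In combination replicate 2 a partner of the same exon number, MSTRG.10702.15, held 66.6%, but 0.396% and 0.235% in combination replicates 1 and 3.

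Ppil4, which encodes a cyclophilin of the spliceosome, had the simplest pair. The assembled MSTRG.43.2 has 12 exons and lacks 103 bases of the reference ENSRNOT00000021437, which has 13 exons. The 2 forms share 10 introns. The shorter form had 56.6%, 57.6% and 47.8% in the model and 11.9%, 10.5% and 16.0% in the combination libraries (adjusted p = 0.0151). Normal libraries, at 50.1% to 56.2%, lay with the model. The level of Ppil4 as a whole was alike, with means of 50.7 and 49.0 TPM. In Ndor1, an oxidoreductase gene, the reference ENSRNOT00000014445 went from 29.0%, 42.9% and 33.8% to 1.90%, 2.62% and 2.68%, while MSTRG.10606.2, which holds all its bases, 1 intron fewer and 2257 further bases, went from 0.35% to 1.37% to 37.5% to 41.5%.

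Other changes involved forms at or near 0 in 1 group. MSTRG.14784.4 of Ccnk, a cyclin of transcription, made up 72.1%, 76.6% and 74.8% in the model and 0% in all combination and normal libraries (adjusted p = 0.000323). Shares of Tnik (32.9%, 30.7% and 46.0% to 0%), a kinase of Wnt signalling, and Irak3 (81.2%, 68.0% and 51.1% to under 0.6%), a brake of Toll-like receptor signalling, fell likewise. Further named shares were those of Tdrd7 (56.0% to 0% on average), Slc16a10 (52.2% to 0%) and Tbc1d16 (1.68% to 45.7%). Splicing factor genes were among the 28: Srsf1 had 4 called shares, and the reference ENSRNOT00000043410 of Son fell from 27.3% to 0.299% on average. Of the 36 shares 6 passed whichever of the 6 libraries was left out, among them those of Rapgef1, Lmbr1l, Ccnk, Son and Tnik. The shares of Ppil4 held in 4 of those 6 fits, and those of Ndor1 MSTRG.10606.2 and Tdrd7 in 0.

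**Figure D5:**
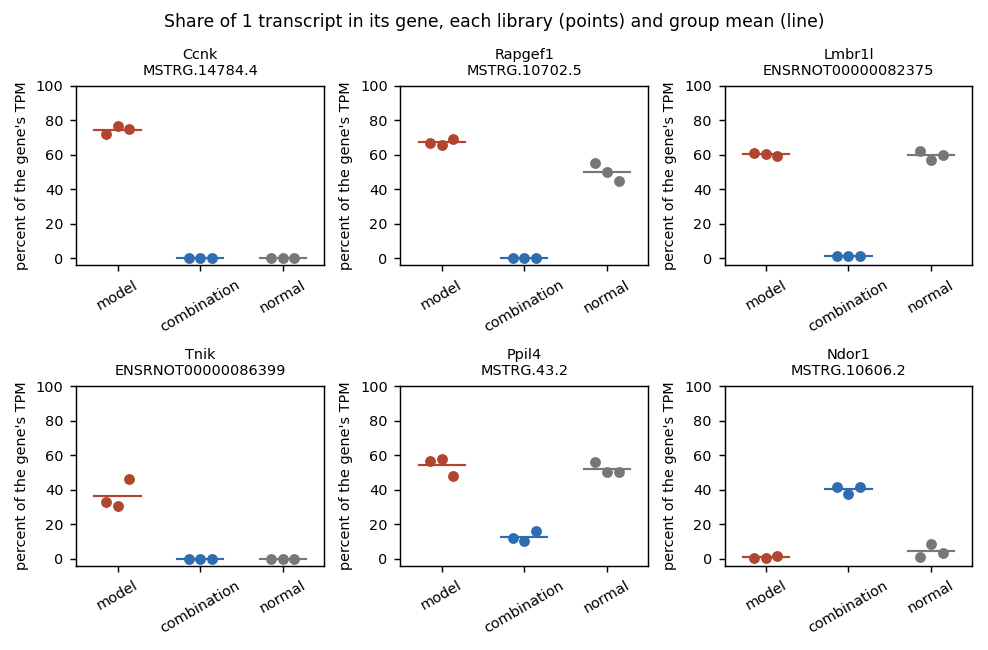
Share of 1 transcript in the TPM of its gene (vertical axis, percent) in each library (points; lines are group means) for 6 genes. The combination libraries lie apart from the model in all 6; in Rapgef1, Lmbr1l, Ppil4 and Ndor1 the normal libraries lie nearer to the model, in Ccnk and Tnik at or near 0% with the combination group.

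Loci with no gene name gave 125 of the calls, 105 higher and 20 lower, out of 2829 such loci tested. Of all genes tested 2.64% were higher and 2.22% lower. Of the 1540 unnamed loci tested that had a single exon, 62 were higher and 4 lower. Of the higher loci, 5 were listed at 0 in every model library. MSTRG.9501 (chromosome 2, 193531234 to 193538845, minus strand, 2 exons) was listed at 0 in the model and normal libraries and at 3.28, 4.43 and 3.43 TPM in the combination libraries (adjusted p = 0.00431). MSTRG.186 was listed at 0 in the model and at 8.82, 0.987 and 11.9 TPM in the combination libraries. Its level was thus highest in combination replicates 1 and 3, the libraries with 25726 and 26108 genes above 0; the part of their added coverage in the calls of unnamed loci was not tested. MSTRG.8164 lies just before Smad7 on the opposite strand (chromosome 18, 71364403 to 71395309) and fell from 9.96 to 11.7 TPM to 1.75 to 4.23 TPM (-1.58, adjusted p = 0.0257), beside the fall of Smad7. The largest fall was that of MSTRG.4996, from 13.3, 29.6 and 74.1 TPM to 0.537, 0.598 and 8.99 TPM (-3.46, adjusted p = 0.044). Of MSTRG.9501, MSTRG.186, MSTRG.8164 and MSTRG.4996, MSTRG.9501 alone passed without combination replicate 1.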

How the data were processed

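RNA-seq of 9 libraries was analysed from 1 table per library. Per the labels, total RNA was extracted with Trizol and libraries were made with a NEBNext Ultra kit; strand is not stated. Per the submitters' processing notes, bcl2fastq and HISAT2 were used with rn6; versions are not given in the sources used here. Per the file headers, StringTie 1.3.3b estimated a merged set of 80092 transcripts. The deposited values used are TPM, another text attribute that the authors' StringTie run wrote; read counts were not used here, so no counting error is given, and depth was computed from coverage and FPKM.

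TPM was summed by gene name within an assembled locus. Of the loci 844 held more than 1 name, and 5378 transcripts were given the name whose exons they overlapped. Genes and transcripts that averaged 1 TPM or more across the 6 libraries entered limma 3.58.1 (R 4.3.3) as log2(TPM + 1), with 1 coefficient per group over 9 libraries, an intensity trend, 6 residual degrees of freedom plus 3.53 from the prior, and Benjamini-Hochberg adjustment over all features at 0.05. Shares were tested as log2 ratios of a transcript to the rest of its gene with 0.5 TPM added, for genes averaging 5 TPM or more with 1 TPM or more in each library, and mean shares of 5% to 95%. Motifs and figures used Python 3.11.15 with pandas 2.3.3 and matplotlib 3.10.9.

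Named genes were the 12 largest rises and falls (called, groups apart, at least 5 TPM in the higher group, 300 bases or more, a proper symbol), genes called in both fits, up to 4 called members per list or else the 2 of smallest p, a preset set, the isoforms of largest change, and unnamed loci; a part is printed. List members printed outside this rule were chosen after their values were seen. The members and the 39 lists were chosen with earlier results of these data known. On simulated data (14140 genes, 200 changed in each of 5 rounds) the gene test recovered 7.2%, 34.4%, 89.2% and 95.2% of 1.5-, 2-, 4- and 8-fold changes, with 5.52% false calls. The simulated noise was drawn separately for each gene and library. Shifts of a whole library and differences in handling between groups were thus absent, and 5.52% is no false-call rate of the real calls. Alternatives were pseudocounts, filters, FPKM, scalings, weights, a replicate block and the omission of single libraries. Fits that kept only replicate 2 of the model or of the combination group, and a fit without unnamed loci, were chosen after seeing the data. Some called items are not reported here.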

Additional observations from a re-analysis of the deposited data

Results flagged for a closer look

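Genes for odorant receptors, which are not a measurement of interest in T cells, were listed above 0 TPM far more often in combination replicates 1 and 3 than in any other library. Of 910 such genes, 509 and 607 were above 0 in these 2 libraries, against 32 in combination replicate 2, 17 to 47 in the model libraries and 18 to 66 in the normal libraries. Their summed level was 57.3 and 56.9 TPM in combination replicates 1 and 3 and 3.97 to 8.45 TPM in the other 7. In all, 2042 genes were above 0 in both of these libraries and at 0 in the other 7, at a median of 0.0692 and 0.0626 TPM. Of these, 4 reached the mean of 1 TPM and 0 passed in limma. The part of this low coverage in the other results was not tested. With combination replicate 2 alone kept in its group, the median of the immediate early list was -1.22, of TGF-beta genes -0.98, of the unfolded protein response -0.54, of small nucleolar RNA 0.63, of monocyte genes 1.80 and of platelet genes 1.47.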

How the results depend on the processing

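The count of 687 genes was 1359 with FPKM, 2060 with array weights, 1602 with median-ratio scaling, 1549 after removal of haemoglobin, mitochondrial and ribosomal protein genes, 406 with a mean from 5 TPM, 232 with no filter, 24 in the fit of only the 6 libraries, 25 with combination replicate 2 alone and 110 with model replicate 2 alone. It ranged from 3 to 1349 with each library omitted, and was within 1.5 times under the other 8 alternatives. The count of 57 transcripts was 218 with FPKM, 115 with median-ratio scaling, 109 after that removal, 33 with at least 5 TPM, 306 with combination replicate 2 alone and 412 with model replicate 2 alone, and 28 to 255 with each library omitted. The count of 36 shares was 23 with mean shares of 10 to 90%, 246 with combination replicate 2 alone and 311 with model replicate 2 alone, and 24 to 110 with each library omitted. The cause was not tested, except that fewer features enter a stricter filter and more enter without one.

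With the replicate number as a block 9 genes, 5 transcripts and 6 shares passed. Residuals of libraries with the same number correlated at -0.13, 0.056 and -0.075, so the numbers were not taken to pair the libraries.

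Of 2950 alternative values of 113 named genes, 2093 kept the direction and the side of the threshold, 815 fell short of it, 24 newly passed and 18 changed sign. The sign changes were Mt-nd2 with locus sums (-0.090); S100a9 without model replicate 3 (-0.072); Blnk (-0.0051), Cd3e (-0.17), Cd4 (-0.64) and Cd79a (-0.36) with model replicate 2 alone; Cd4 without combination replicate 1 (-0.041) and without model replicates 1 (-0.19) and 3 (-0.0043). Foxp3 was 0.0067 with FPKM, 0.070 with array weights, 0.032 with combination replicate 2 alone, 0.13 and 0.052 without combination and model replicates 3, and 0.069 after the same removal. Tnf was -0.14 and -0.067 without combination replicates 1 and 2 and -0.13 without model replicate 3. With each library omitted S100a9 ranged from -0.072 to 1.13, Cd4 from -0.19 to 0.45, Foxp3 from -0.15 to 0.13 and Tnf from -0.14 to 0.57. Of 1000 list medians, 48 moved by more than the spread between libraries. The medians of 15 of 39 lists changed sign under at least 1 alternative: interferon and glucocorticoid (8 each), regulatory T cell (7), T cell activation, Th17 and oxidative phosphorylation (5 each), mTOR (3), Th1, cytokine and oxidative stress (2 each), and T cell identity, ATF4, B cell, neutrophil and mitochondrially encoded genes (1 each). The lists of early response, TGF-beta, unfolded protein, NF-kB, glycolysis, small nucleolar RNA, monocyte, platelet and erythroid genes kept their sign in every alternative.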

Other observations

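Il17a, the cytokine that defines Th17 cells, was below the filter, at 0.0846, 0 and 0.385 TPM in model replicates 1, 2 and 3 and at 0.314, 0.0549 and 0.125 TPM in combination replicates 1, 2 and 3. Mki67, a marker of dividing cells, was at 0.704, 0.793 and 0.839 TPM and at 1.07, 0.998 and 0.771 TPM. F2r, the thrombin receptor gene, had 27.1, 12.1 and 60.5 TPM in the model and 4.24, 3.39 and 2.04 TPM in the combination libraries (-2.78, adjusted p = 0.0288 in limma), in a locus shared with 7SK. Rgs16, which limits G protein signalling, had 13.1, 4.98 and 37.5 TPM and 2.49, 0.988 and 1.45 TPM (-2.53, adjusted p = 0.041). Bcor, a transcriptional corepressor, had 12.8, 8.6 and 56.7 TPM and 2.79, 2.61 and 1.29 TPM (-2.64, adjusted p = 0.0386). In all 3 genes model replicate 3 was highest. Their groups did not overlap, which was a condition of their choice and held for every called gene. None of the 3 passed without combination replicate 1 or model replicate 3.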
